A study of Mus musculus with 4 samples.

Results

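The genes described here are 10 genes of protein folding in the endoplasmic reticulum (ER), out of 27998 genes counted in each library: *Pdia6*, *Pdia3*, *Pdia4*, *Hspa5*, *Hsp90b1*, *Calr*, *Canx*, *Xbp1*, *Sdf2l1* and *Manf*. They were taken by their symbols, with *Pdia6* as the starting point, chosen by its lower counts in *Bcl3*-/- than in WT libraries of these data. The difference between genotypes was therefore known when the genes were chosen, and it is given as a description. Counts of calls in that contrast stand beside the share of all genes called, and nothing is read from them. Single splenic cells were sequenced on day 8 after infection with LCMV Armstrong, a virus strain that mice clear, from mixed bone marrow chimeras in which WT and Bcl-3-deficient T cells respond in the same animal. Each of 2 chimeras gave 1 WT and 1 *Bcl3*-/- library of sorted H-2Db-GP33+ CD8+ cells, so that n = 2 libraries per genotype, named WT1, KO1, WT2 and KO2 after the chimera.

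WT marrow came from CD45.1 congenic mice (B6.SJL) and *Bcl3*-/- marrow from CD45.2 mice, and equal parts were transferred into sub-lethally irradiated *Rag1*-/- hosts, which make no T or B cells of their own. Donors and hosts alike had C57BL/6 as their genetic background. The knockout is carried by every cell grown from its donor marrow, and genotype and the congenic donor background cannot be told apart in this design. Reads of the 3′ ends of transcripts were counted as unique molecular identifiers (UMIs), each standing for 1 captured molecule, and levels are given as UMIs per 1000000 UMIs of the cells summed (CPM).

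ER chaperones fold proteins that enter the secretory pathway. *Hspa5* encodes BiP, the Hsp70 of the ER lumen, *Hsp90b1* encodes GRP94, its Hsp90, and *Calr* and *Canx* encode the lectin chaperones calreticulin and calnexin. When unfolded proteins accumulate, the sensors IRE1, PERK and ATF6 start the unfolded protein response, in which IRE1 splices *Xbp1* mRNA and the transcription factors XBP1 and ATF6 raise chaperone genes. Plasma cells, which secrete large amounts of antibody, need XBP1 and are known for high chaperone expression.

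The promoters are shown first, for the motif through which the unfolded protein response is known to act on chaperone genes. This ER stress response element (ERSE) is a CCAAT box that lies 9 bases from CCACG. This pair of boxes, with any 9 bases between them, was searched on both strands of RefSeq promoters (GRCm38.p6, 300 bases that end 50 bases after the start of the gene), which were found for 9 of the 10 genes. It was present in 5 of these 9, against 0.119% of 32851 promoters. Each ERSE is given with 5 bases on either side, in capitals where it matches the motif:
Pdia6: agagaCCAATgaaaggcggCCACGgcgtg
Hspa5: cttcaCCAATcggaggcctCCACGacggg
Hsp90b1, upstream copy: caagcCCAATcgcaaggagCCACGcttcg
Hsp90b1, downstream copy: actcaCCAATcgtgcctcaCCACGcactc
Calr: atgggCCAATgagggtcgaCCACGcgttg
Canx: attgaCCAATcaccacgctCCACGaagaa

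The printed stretches lie at chr12:17266486-17266514 (*Pdia6*, plus strand), chr2:34772020-34772048 (*Hspa5*, plus strand), chr10:86705633-86705661 (minus strand) and chr10:86705528-86705556 (plus strand, against the direction of the gene) for *Hsp90b1*, chr8:84847070-84847098 (*Calr*, plus strand, against the direction of the gene) and chr11:50325795-50325823 (*Canx*, minus strand). The motifs themselves span positions -98 to -80 from the RefSeq start in *Pdia6*, -65 to -47 in *Hspa5* and -145 to -127 in *Canx*. The *Hspa5* stretch falls within the gene as annotated in GENCODE vM21 (chr2:34771970-34777547). Promoter bases after the RefSeq start were found in GENCODE protein-coding transcripts of each gene searched except *Pdia4*, whose promoter is therefore less certain. The motif contains both a CCAAT box and CCACG, and these shorter motifs were common: CCAAT was found in 8 of the 9 promoters and in 37.4% of all, and CCACG in 7 of 9 and in 32.8% of all. The other motifs searched, ATTGG separated by 1 base from CCACG, TGACGTGG and TGACGTCA, were in 0 of the 9 promoters and in 0.0365%, 0.676% and 1.79% of all. A match is a description of the letters only. The *Pdia6* site is shown in its longer context, chr12:17266339-17266544 on the plus strand, which ends just before the gene's earliest annotated base (chr12:17266545-17284770, GENCODE vM21):
Pdia6 promoter: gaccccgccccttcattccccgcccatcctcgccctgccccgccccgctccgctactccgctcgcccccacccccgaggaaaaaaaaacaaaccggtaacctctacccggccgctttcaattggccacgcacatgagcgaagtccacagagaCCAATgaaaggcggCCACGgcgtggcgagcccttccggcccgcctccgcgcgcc

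A barcode was kept as a cell from 500 detected genes upward, if no more than 10% of its UMIs were mitochondrial, which left 4941 (WT1), 8092 (WT2), 5366 (KO1) and 6494 (KO2) cells from libraries of 20358780 to 22922219 UMIs. WT2 was the shallowest, with a median of 2019 UMIs per cell, and the medians of the others lay between 2948 (KO2) and 3620.5 (KO1). T cells, B cells and plasma cells were gated by marker genes that include none of the 10 genes. T cells numbered 4576, 7524, 4926 and 6051 in WT1, WT2, KO1 and KO2, B cells 99, 106, 123 and 116, and plasma cells 27, 58, 20 and 35. In the T cells all 6 T cell markers were detected, with a summed level of 7005 to 7754 CPM led by *Cd8b1*, and *Cd4* lay between 1.64 and 2.75 CPM. They also held RNA of all 15 myeloid markers, at a sum of 534 and 381 CPM in WT1 and WT2 and 714 and 504 CPM in KO1 and KO2, led by *S100a8* (*Lyz2* in WT2) and higher in the knockout of each chimera. RNA of the 4 basophil and mast cell markers was at 45.7 CPM in KO1 and at most 7.48 CPM in the others. The part of these cells in the genotype differences was not tested.

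B and plasma cells are outside the sort gate, and their genotype rests on the CD45 sort having held for them too, which was not tested. The plasma class was led by *Jchain*, the joining chain of polymeric antibodies, at 26749, 27685, 37636 and 43550 CPM in WT1, WT2, KO1 and KO2. It also held T cell marker RNA at 1677 to 2417 CPM and B cell marker RNA at 9030 to 12578 CPM, mostly *Cd74*. Myeloid marker RNA was at 944, 808, 1518 and 1151 CPM in plasma cells of WT1, WT2, KO1 and KO2, and that of the 15 cell cycle markers at 352, 1080, 209 and 616 CPM. The B class held RNA of the dendritic cell list at 12.7 to 126 CPM, led in 3 of the 4 libraries by *Siglech*, a gene of plasmacytoid dendritic cells. Between 37 and 63 cell barcodes were shared by any pair of libraries, where barcodes drawn at random would share 36.0 to 71.3.

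*Bcl3* itself, an atypical IκB protein that acts with NF-κB in the nucleus, was counted in T cells at 28.5 and 108 CPM in WT1 and WT2 and at 21.0 and 85 CPM in KO1 and KO2. It was lower in the knockout within each chimera, yet KO2 lay above WT1, so the genotypes overlapped. Which part of the gene the allele lacks is not given in the sources used here, so 3′ counts of *Bcl3* do not check the labels.

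In T cells, *Pdia6*, a protein disulfide isomerase that forms and rearranges disulfide bonds and binds BiP, was counted at 137 and 133 CPM in WT1 and WT2 and at 81.8 and 85 CPM in KO1 and KO2. Both *Bcl3*-/- libraries lay below both WT libraries, and the values within a genotype were close. Within the chimeras the knockout had 0.599 and 0.64 times the WT level (log2 -0.74, counting interval -0.83 to -0.65, and -0.64, -0.74 to -0.55, at 95%). These intervals cover counting error only. In the edgeR fit over all genes *Pdia6* was at -0.70 (log2, SE 0.09), and over the alternatives that were run it lay between -0.80 and -0.66.

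**Figure D1:**
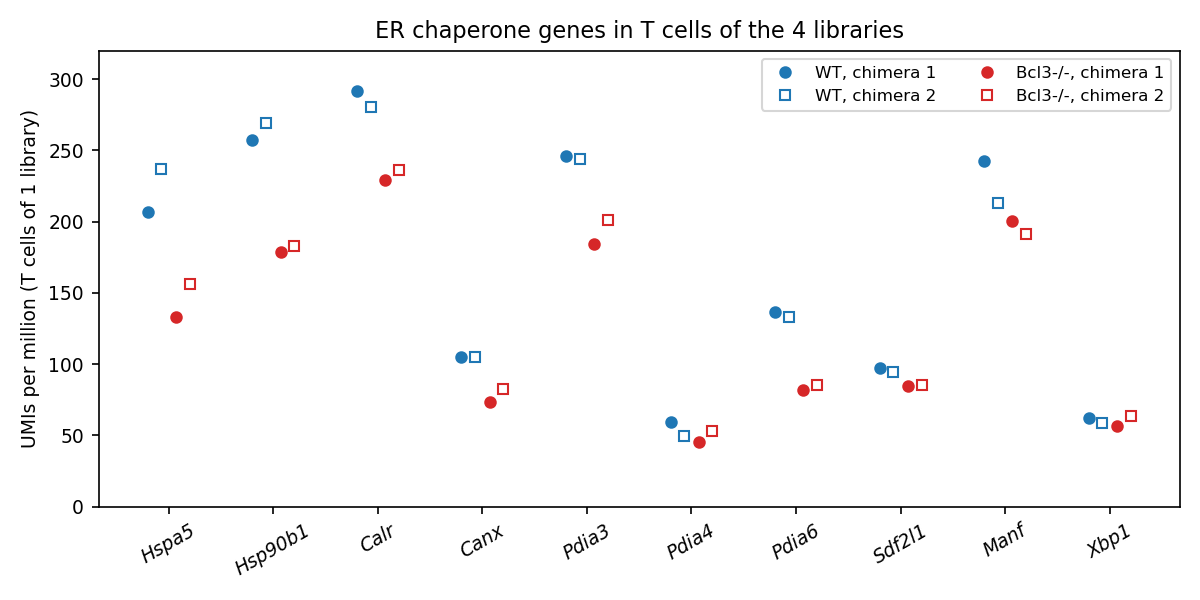
Level (CPM) of the 10 genes in the T cells of each library, with 1 point per library (blue WT, red *Bcl3*-/-; filled chimera 1, open chimera 2). Pdia6, Hspa5, Hsp90b1, Calr, Canx, Pdia3, Sdf2l1 and Manf have both *Bcl3*-/- points below both WT points, while Pdia4 and Xbp1 overlap.

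*Pdia6* was lower in both *Bcl3*-/- libraries in each of 4 depth ranges of T cells between 1000 and 6000 UMIs. Among T cells of 2000 to 3000 UMIs it was 118 and 133 CPM in WT1 and WT2 against 59.0 and 75.5 CPM in KO1 and KO2. Among those of 4000 to 6000 UMIs it was 140 and 141 against 85.8 and 97.1 CPM. With each cell thinned to 1000 UMIs, a *Pdia6* UMI was found in 12.2% of T cells of WT1 (exact Clopper-Pearson 95% interval 11.3 to 13.2) and 12.3% of WT2 (11.6 to 13.1). The share was 6.64% in KO1 (5.96 to 7.38) and 7.8% in KO2 (7.14 to 8.5). Without thinning the shares were 36.8%, 23.4%, 25.4% and 21.4% in WT1, WT2, KO1 and KO2, and WT2 no longer stood apart from the knockout. Free RNA, counted in barcodes under 100 UMIs, held *Pdia6* at 173 (WT1), 134 (WT2), 119 (KO1) and 118 CPM (KO2), at or above the T cell level of its own library, so part of the T cell counts can be free RNA in all 4 libraries. Its part in the difference was not tested.

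Of the 10 genes, 8 had both *Bcl3*-/- libraries below both WT libraries in T cells, none had both above, and *Pdia4* and *Xbp1* overlapped. Over 10939 genes with at least 40 UMIs in T cells, 18.6% were lower in this way and 24.3% higher. The make-up of the T cells also differed by genotype: cell cycle markers summed to 586 and 607 CPM in WT1 and WT2 against 419 and 538 CPM in KO1 and KO2, and terminal effector markers to 1417 and 1735 against 2531 and 2565 CPM. Interferon response markers summed to 1063 and 1730 against 773 and 1105 CPM, lower in the knockout of each chimera. The part of this make-up in the differences was not tested. *Hspa5* was at 207 and 237 CPM in WT1 and WT2 and at 133 and 156 CPM in KO1 and KO2. *Hsp90b1* was at 257 and 269 against 179 and 183 CPM. These had, after *Pdia6*, the largest differences in the fit (log2 -0.63, SE 0.10, and -0.55, SE 0.09).

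The lectin chaperones and their partner follow. *Calr* was at 292 and 281 CPM in WT1 and WT2 against 229 and 236 CPM in KO1 and KO2, and *Canx* at 105 and 105 against 73.5 and 82.8 CPM. *Pdia3*, the isomerase ERp57 that works with both and in peptide loading of MHC class I, was at 246 and 244 against 184 and 201 CPM. All 3 were separated by genotype in T cells, with log2 differences of -0.31, -0.44 and -0.36.

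*Manf*, a factor with ER retention that binds BiP, was at 243 and 213 CPM in WT1 and WT2 and at 201 and 191 CPM in KO1 and KO2, a gap between WT2 and KO1 smaller than the gap between the WT libraries. *Sdf2l1*, a cofactor of BiP, was at 97.4 and 94.5 against 84.7 and 85.3 CPM. *Pdia4*, the isomerase ERp72, was at 59.5 and 49.8 against 45.6 and 53.0 CPM. *Xbp1*, whose splicing these 3′ counts do not show, was at 62.2 and 58.7 against 56.6 and 63.6 CPM, and was at 129 to 170 CPM in free RNA. Of the 10 genes 7 had a higher level in free RNA than in T cells of each library (*Pdia6*, *Pdia3*, *Hspa5*, *Hsp90b1*, *Canx*, *Xbp1* and *Manf*), with *Hspa5* at 259, 258, 202 and 244 CPM and *Hsp90b1* at 285, 316, 257 and 297 CPM in free RNA of WT1, WT2, KO1 and KO2, and the part of free RNA in their differences was not tested.

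Fitted over all 4 libraries without a block, 22 of 11039 genes (0.199%) were called in T cells at an adjusted p under 0.05, and 0 of the 10 genes were among them, with 6 at an unadjusted p under 0.05 (14.1% of all genes) and 4 called by DESeq2 (1.46%). With no filter on low counts, without TMM and with cells thinned to 1000 UMIs, 1 of the 10 was called in T cells. All genes called there numbered 31, 39 and 37. WT and *Bcl3*-/- libraries of a number come from the same animal. With chimera as a block 1174 genes (10.6%) were called, 582 of them (5.27%) lower, and 7 of the 10 genes were among these. Leaving out 1 library gave between 2 (without WT2) and 183 (without KO1) calls, so the unblocked count depends on single libraries. Over all cells, 42 of 11566 genes (0.363%) were called without the block, *Pdia6* among the 9 that were lower (0.0778%), and 1116 (9.65%) with it, 560 of them (4.84%) and 7 of the 10 genes lower. Over all cells 0 of the 10 genes were called without WT2 (0.334% of all genes), without KO1 (1.48%) or without KO2 (0.456%), and 3 without WT1 (1.9%). The called genes with the largest differences were *AY036118* (log2 3.06, SE 0.35) and *Gm12840* (2.80, SE 0.30) in T cells, and *Prok2*, a secreted prokineticin (3.22, SE 0.44), and *AY036118* over all cells. *Xist* was left out of this ranking beforehand. Over all cells the myeloid markers summed to 2497 and 2280 CPM in WT1 and WT2 against 3522 and 3924 CPM in KO1 and KO2. Their part in the calls over all cells was not tested.

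For other genes of the pathway in T cells, the lists give counts without a test. The median log2 difference of the 10 genes was -0.34, and all 10 were below 0, beside a median of 0.01 over all genes tested, of which 5633 were above and 5406 below 0. Of 29 other folding genes tested 20 were below 0, with a median of -0.11. Of 18 genes of ER-associated degradation 14 were below 0 (median -0.14), of 21 genes of translocation into the ER 17 (-0.13), and of 14 genes of N-glycosylation 10 (-0.12). Of 11 genes of retention and export 7 were below 0 (-0.12) and of 6 genes of peptide loading 4 (-0.16), while of 6 calcium genes 4 were above 0 (0.10). Of 14 sensors and transcription factors of the response 9 were above 0, with a median of 0.03.

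The difference between genotypes was also described within T cell groups, gated by markers of the cell cycle, of memory or naive cells, of terminal effectors and of the interferon response. *Pdia6* was lower in both *Bcl3*-/- libraries in each of them. In cycling T cells it was at 163 and 169 CPM in WT1 and WT2 and at 103 and 130 CPM in KO1 and KO2. In terminal effector gene T cells it was at 137 and 120 against 72.6 and 68.3 CPM, and in memory or naive gene T cells at 104 and 119 against 68.7 and 77.1 CPM. The memory or naive value of chimera 1 came from 20 UMIs in KO1 and 57 in WT1. The 95% counting interval of its log2 ratio, -1.41 to 0.16, contained 0. Of the 10 genes, 9 were lower without overlap in the terminal effector group (19.6% of all genes with at least 40 UMIs), 6 in the cycling (17.6%), 5 in the memory or naive (18.9%) and 4 in the interferon group (17.8%). In cycling T cells *Pdia4*, *Xbp1* and *Manf* overlapped between genotypes and *Sdf2l1* was not lower, with 164 and 166 CPM in WT1 and WT2 and 174 and 171 CPM in KO1 and KO2, where 22.8% of genes were higher and the 95% counting intervals of its ratios (-0.18 to 0.35 and -0.21 to 0.29 on the log2 scale) contained 0.

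In B cells, *Pdia6* was at 192 and 220 CPM in WT1 and WT2 and at 84.7 and 114 CPM in KO1 and KO2. The knockout level was 0.44 and 0.521 times the WT level within the chimeras, from 34 against 61 and 37 against 52 UMIs. *Pdia3*, *Hspa5*, *Hsp90b1* and *Calr* were also lower without overlap, 5 of 10 in all, where 19.7% of 3703 genes with at least 40 UMIs were lower. *Pdia4* was higher, at 104 and 123 CPM in WT1 and WT2 against 157 and 167 CPM in KO1 and KO2, where 17.1% of genes were higher. The 95% counting intervals of most B cell ratios, *Pdia4* included, contained no difference. Cell cycle markers in B cells summed to 451 and 275 CPM in WT1 and WT2 against 172 and 229 CPM in KO1 and KO2, without overlap. Myeloid marker RNA was at 602 and 393 against 829 and 482 CPM, higher in the knockout of each chimera. The part of either in the B cell differences was not tested.

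In plasma cells *Pdia6* overlapped between genotypes, at 822 and 1194 CPM in WT1 and WT2 and at 736 and 1254 CPM in KO1 and KO2. Here chimera 1 lay below chimera 2 in both genotypes, as it did for the cell cycle markers, whose part was not tested. *Pdia3*, *Pdia4*, *Hspa5*, *Calr* and *Sdf2l1* were higher in both *Bcl3*-/- libraries and *Canx* was lower, beside 16.6% of 2649 genes that were higher and 19.4% that were lower. *Hspa5* was at 1986 and 3445 CPM in WT1 and WT2 and at 5605 and 3997 CPM in KO1 and KO2.

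**Figure D2:**
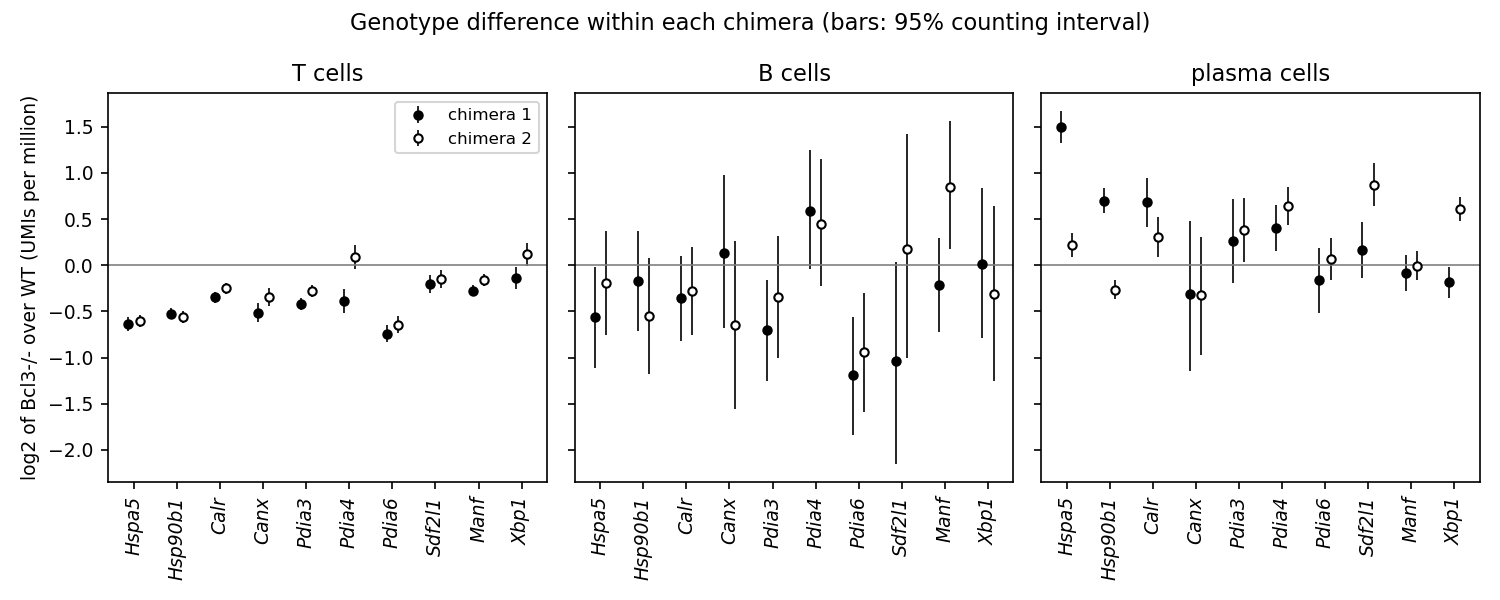
Log2 ratio of the *Bcl3*-/- to the WT level within each chimera for T, B and plasma cells, with 95% counting intervals (filled chimera 1, open chimera 2). In T cells 8 genes lie below 0 in both chimeras with short intervals, B cell intervals are wide, and in plasma cells Hspa5 reaches 1.5 in chimera 1.

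Single plasma cells held much of these sums. In KO1, 1 of 20 plasma cells had 472 of the 860 *Hspa5* UMIs, and in KO2 1 of 35 had 382 of 934. The largest share of 1 cell in WT1 and WT2 was 12.8% and 15.6%. Without the richest cell of each library *Hspa5* was at 1789, 2980, 2742 and 2443 CPM in WT1, WT2, KO1 and KO2, and the genotypes overlapped. Leaving out the richest cell for each gene, chosen after the values were seen, *Pdia3* and *Pdia4* remained higher without overlap, with 418 (WT2) against 488 (KO1) CPM for *Pdia3* and 1125 (WT2) against 1392 (KO1) CPM for *Pdia4*, and *Canx* remained lower. This left 2 of the 10 genes higher and 1 lower. With all plasma cells kept, 16.6% of genes were higher and 19.4% lower, so nothing is read from these counts. Cells above 10000 CPM of *Hspa5* numbered 0, 6, 2 and 3 among the plasma cells of WT1, WT2, KO1 and KO2, and 0 among T and B cells, where the highest cell had 3531 CPM. The median plasma cell had 1292, 1447, 935 and 1652 CPM in the same order. The cells richest in *Hspa5* in KO1 and KO2 had *Xbp1* at 83.8 and 4774 CPM, beside plasma cell medians of 2778 and 4245 CPM.

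**Figure D3:**
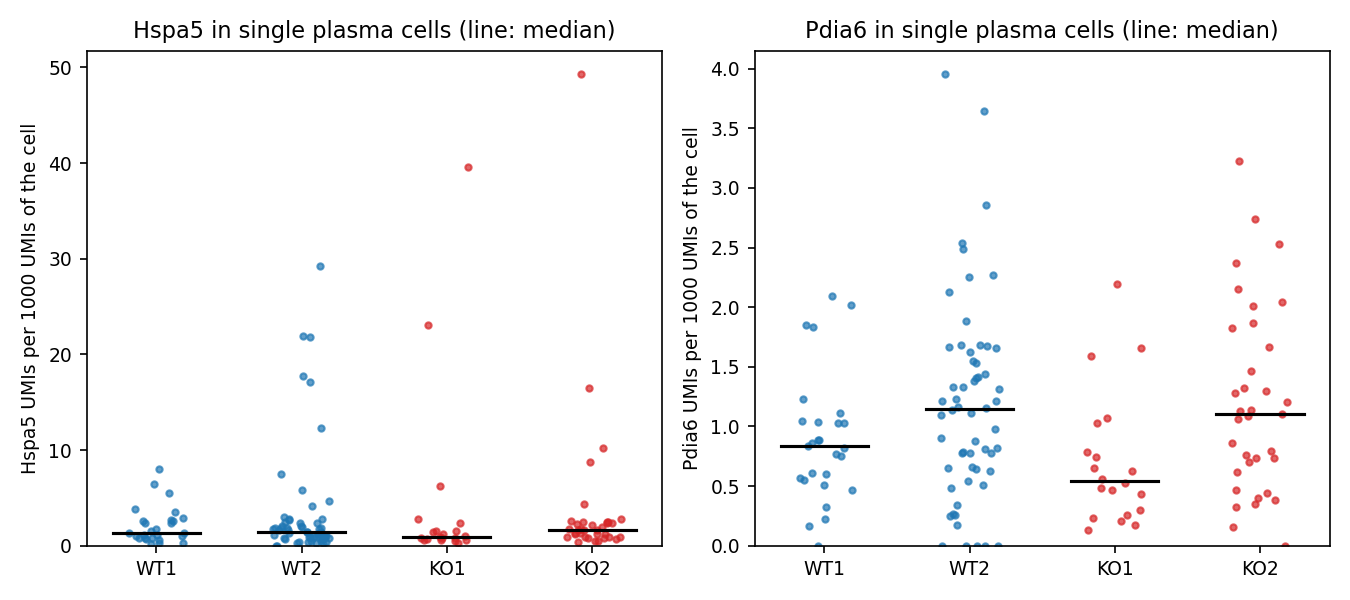
UMIs of Hspa5 (left) and Pdia6 (right) per 1000 UMIs of each plasma cell by library, with 1 point per cell and a line at the median. A few cells of WT2, KO1 and KO2 stand far above the rest for Hspa5. For Pdia6 1 cell held at most 17.7% of the UMIs of a library (KO1), and the Pdia6 medians overlap between genotypes.

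The 10 genes were next compared between cell classes within libraries. The rule that chose the genes used the genotype contrast and not this one, though earlier results of these data were known. All 10 were higher in plasma cells than in T cells (edgeR quasi-likelihood test with library as a block and Benjamini-Hochberg adjustment), where 2599 of 5035 genes (51.6%) were called, 1361 of them (27.0%) higher. The median log2 difference of the 10 genes was 3.84, beside -0.01 over all genes tested. No library overlapped between plasma and T cells for any of the 10 genes. The plasma cells were deeper than the T cells, with medians of 4697 to 7094 UMIs in WT2 and KO1, and with all cells thinned to 1000 UMIs 10 of 10 were called, where 42.9% of 2349 genes were.

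**Figure D4:**
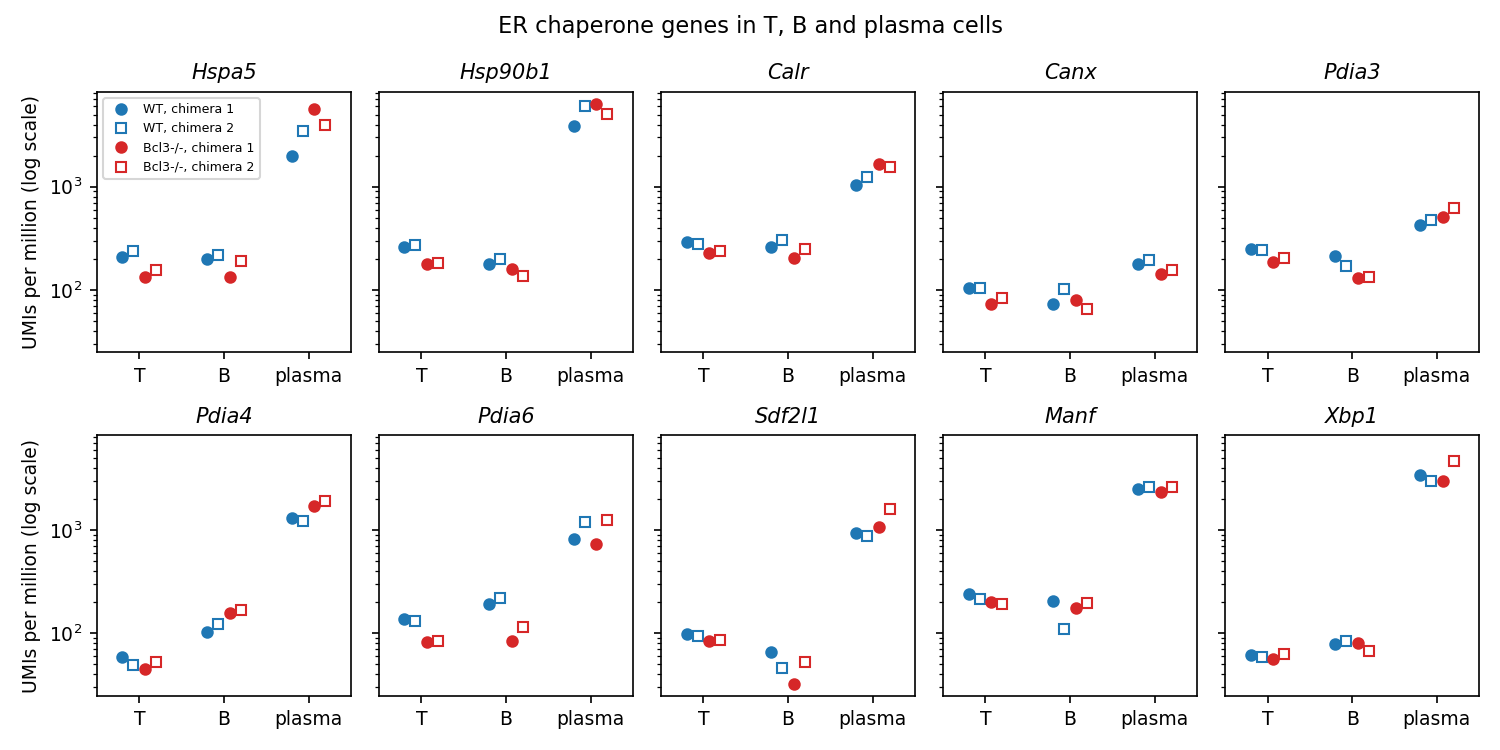
Level (CPM, log scale) of the 10 genes in T, B and plasma cells, with 1 point per library (blue WT, red *Bcl3*-/-; filled chimera 1, open chimera 2). All 4 plasma points lie above all T and B points for each gene, from Canx, with the smallest gap, to Xbp1, with the largest.

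*Xbp1* rose most. It was at 3404, 3024, 2991 and 4626 CPM in plasma cells of WT1, WT2, KO1 and KO2 against 56.6 to 63.6 CPM in T cells, a 68.7-fold difference (log2 6.10, SE 0.09, edgeR adjusted p = 5.88e-42). *Pdia4* was 34.5-fold higher (SE 0.12 on the log2 scale), at 1300, 1215, 1714 and 1896 CPM in the same order. *Hsp90b1* was 28.8-fold higher (SE 0.11), at 3911, 6110, 6348 and 5093 CPM, and *Hspa5* 23.9-fold higher (log2 4.58, SE 0.16). The *Hspa5* value rests in part on the few richest cells, and without the richest cell of each gene and library it was at 3.52 on the log2 scale.

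The BiP cofactors rose to a like degree, *Sdf2l1* by 14.5-fold (log2 3.86, SE 0.12) and *Manf* by 14.2-fold (3.83, SE 0.08). *Manf* was the steadiest of the 10 genes across plasma libraries, between 2340 and 2613 CPM. *Pdia6* was 11.1-fold higher (log2 3.47, SE 0.13) and *Calr* 6.23-fold (2.64, SE 0.10). *Pdia3* and *Canx* rose least, by 2.75-fold (log2 1.46, SE 0.12) and 2.18-fold (1.12, SE 0.14). The same 10 were higher in plasma than in B cells, where 43.9% of genes were called and 23.2% were higher, from 2.24-fold for *Canx* to 48.2-fold for *Xbp1*. Without the same richest cells *Hspa5* went from 4.44 to 3.34 on the log2 scale against B cells, *Hsp90b1* from 5.09 to 4.50 and *Sdf2l1* from 4.61 to 4.02.

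In B cells against T cells, 4 of the 10 genes were called, where 47.8% of 5035 genes were called, 24.4% higher and 23.5% lower. *Pdia4* was 2.94-fold higher in B cells (log2 1.56, SE 0.16), at 104 to 167 CPM against 45.6 to 59.5 CPM in T cells without overlap. *Pdia6* was 1.52-fold higher (log2 0.60, SE 0.16), at 84.7 to 220 CPM in B cells against 81.8 to 137 CPM in T cells, with overlap. Its call was lost without the library block, where the difference was as large (log2 0.62) and the SE was 0.26. *Xbp1* was 1.43-fold higher (0.51, SE 0.17), and its call was lost without KO1 (log2 0.44), with library sizes not scaled by TMM (0.36), with no filter on low counts (0.33) and in cells of at least 800 genes (0.38). *Sdf2l1* was lower, at 32.4 to 66.2 against 84.7 to 97.4 CPM (log2 -0.76, SE 0.21), a call that was lost with droplets of T cell markers kept (-0.49). *Hspa5* (0.13, SE 0.22), *Calr* (0.10, SE 0.13), *Canx* (-0.04, SE 0.15), *Manf* (-0.11, SE 0.12), *Hsp90b1* (-0.25, SE 0.15) and *Pdia3* (-0.30, SE 0.14) did not pass the test between B and T cells. *Pdia3* was called lower without TMM (-0.45), with no filter on low counts (-0.48), with marker thresholds set higher (a stricter gate, -0.32) and without WT1 (-0.40), *Hsp90b1* without TMM (-0.40) and with no filter (-0.42), and *Manf* with no filter (-0.29). *Hspa5* and *Calr* turned to -0.02 and -0.05 without TMM. Without TMM the median of all genes moved by -0.15 in B against T cells and by -0.26 in plasma against T cells, and the share of calls that were higher went from 50.9% to 37.3% and from 52.4% to 35.4%.

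Most tested genes on the lists of the secretory pathway were higher in plasma than in T cells, along with the chaperones. Of 26 other folding genes tested, 23 rose and 1 fell. *Fkbp11*, a prolyl isomerase of secretory cells, was at 408 to 756 CPM in plasma cells against 1.78 to 3.21 CPM in T cells (253-fold), and the known chaperone response gene *Creld2* was 59.4-fold and the oxidase *Ero1lb* 42.0-fold higher. *Dnajc1*, an ER co-chaperone, fell (log2 -0.58, SE 0.20). Of 10 sensors and transcription factors tested, out of 15 listed, 8 rose, led by *Creb3l2* (32.4-fold), *Eif2ak3*, which encodes PERK (12.8-fold), and *Atf6* (4.78-fold). In T cells *Creb3l2* was at 2.34 to 2.90 CPM and *Eif2ak3* at 3.80 to 5.50 CPM. Genes this low in T cells can pass the filter on low counts through their plasma cell counts. Others of the list, such as *Ern1* and *Trib3*, were not tested. The shares of tested genes that rose in plasma cells can therefore rest in part on the filter, in every list.

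Of 16 genes of ER-associated degradation 15 rose, with *Derl3* (305-fold), *Edem1* (34.3-fold) and *Edem2* (23.1-fold) in front. *Derl3* was at 573 to 822 CPM in plasma cells and at 1.95 to 4.03 CPM in T cells. Of 21 translocation genes 20 rose, led by *Ssr4* (12.3-fold), *Spcs3* (11.7-fold) and *Sec11c* (10.3-fold), and *Sec11a* fell (log2 -0.35, SE 0.13). Of 14 glycosylation genes 13 rose, with the oligosaccharyltransferase subunits *Rpn1* (7.67-fold), *Ddost* (6.99-fold) and *Stt3a* (4.85-fold) first. Of 11 genes of retention and export 10 rose, led by the cargo receptor *Lman1* (34.6-fold), with *Sec24d* (8.97-fold) and the KDEL receptor *Kdelr2* (5.30-fold).

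Of 6 genes of peptide loading, *B2m* (2.98-fold) and *Erap1* (1.61-fold) rose and *Tap1* fell (log2 -0.38, SE 0.13). Of 4 calcium genes tested, the pump *Atp2a2* rose (2.36-fold) and the channel *Itpr1* fell (log2 -1.90, SE 0.58). The median log2 differences were 0.31 for peptide loading, -0.22 for calcium, 2.44 for other folding and 2.58 for degradation, and no test between lists was run.

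B cells did not have this pattern against T cells. Of the translocation genes 0 rose and 8 of 21 fell, the largest falls being *Tram1* (log2 -0.89), *Ssr3* (-0.50) and *Spcs1* (-0.48). Glycosylation genes *Krtcap2* (-0.97), *Ostc* (-0.64) and *Rpn1* (-0.62) fell, and *Stt3b* rose 2.71-fold. Of the folding genes 5 rose, with *Ero1lb* (7.52-fold), *Cnpy3* (3.68-fold) and *Fkbp11* (3.36-fold) first, and 5 fell, with *Dnajc1* (log2 -1.61), *Ero1l* (-1.38) and *Dnajc3* (-0.82). Of the 16 degradation genes the ubiquitin ligase *Syvn1* (4.96-fold) and *Herpud1* (2.18-fold) rose and *Os9* (-0.88), *Selk* (-0.51) and *Edem1* (-0.49) were among 5 that fell. Among the other lists *Ppp1r15a* (3.10-fold), *Eif2ak3* (2.77-fold), *Atf6b* (1.54-fold), *Tap1* (1.24-fold), *Itpr1* (2.10-fold) and *Itpr2* (1.88-fold) rose, and *Nfyb* (log2 -0.73), *Sar1b* (-0.56), *Lman2* (-0.31), *Erap1* (-0.79), *Tapbpl* (-0.71) and *Tap2* (-0.46) fell.

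Within T cells, most of the chaperones were higher in cycling cells than in the remaining T cells. Against the remaining T cells, 7 of the 10 genes rose in cycling T cells (284, 464, 207 and 325 cells in WT1, WT2, KO1 and KO2), where 46.3% of 8426 genes were called and 23.4% were higher. *Sdf2l1* was at 164, 166, 174 and 171 CPM in cycling cells of WT1, WT2, KO1 and KO2 against 92.6, 88.2, 81.5 and 81.7 CPM in the remaining T cells, a 1.92-fold difference (log2 0.94, SE 0.06). *Hsp90b1* rose 1.72-fold, from 248, 257, 173 and 170 to 390, 444, 305 and 333 CPM, and *Hspa5* 1.64-fold, from 196, 219, 127 and 145 to 307, 346, 228 and 261 CPM. In both genes each library rose, and WT stayed above *Bcl3*-/- in both groups.

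*Manf* rose 1.35-fold in cycling T cells (log2 0.44, SE 0.05) and *Pdia6* 1.30-fold (0.38, SE 0.06). *Pdia4* (0.24, SE 0.08) and *Canx* (0.23, SE 0.07) also rose. *Pdia6*, *Pdia4* and *Canx* did not pass the test with cells thinned to 1000 UMIs (0.26, 0.37 and 0.31) or without the library block (0.38, 0.25 and 0.24). With the stricter gate *Canx* (0.11) and *Pdia4* (0.21) were lost, and *Pdia4* also without KO2 (0.19) and with no filter on low counts (0.19). Cycling cells were deeper than the remaining T cells, with medians of 2890 against 1991 UMIs in WT2 and 5294 against 3558 in WT1. *Calr* (0.06, SE 0.05), *Pdia3* (0.05, SE 0.05) and *Xbp1* (0.14, SE 0.08) did not pass the test.

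Other pathway lists were split in cycling cells. Of 26 folding genes 7 rose, led by the prolyl isomerase *Fkbp2* (2.95-fold), *Creld2* (1.97-fold) and *Tmx2* (1.42-fold), and *Sdf2* (log2 -0.69), *Dnajb9* (-0.35) and *Txndc5* (-0.19) fell. *Fkbp2* was at 178 to 192 CPM in cycling and 52.0 to 77 CPM in the remaining T cells. The subunits of NF-Y, the factor that binds CCAAT boxes, all rose: *Nfya* 2.22-fold, *Nfyb* 1.98-fold and *Nfyc* 1.49-fold. Of the same list *Ppp1r15a* (log2 -0.52) and *Creb3* (-0.37) fell.

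Glycosylation had 7 of 14 genes that rose, among them *Dpagt1* (1.78-fold), *Stt3b* (1.42-fold) and *Tusc3* (1.34-fold), and *Krtcap2* (-0.21) and *Dad1* (-0.11) fell. Of 11 retention and export genes *Lman1* (1.51-fold), *Kdelr2* (1.22-fold) and *Lman2* (1.22-fold) were among 4 that rose and *Sec23a* fell (-0.67). Translocation (6 up and 4 down of 21) and degradation (3 up and 3 down of 16) changed in both directions, with *Ssr2* (1.33-fold), *Sec11c* (1.28-fold), *Ssr1* (1.24-fold), *Edem1* (1.30-fold), *Derl2* (1.29-fold) and *Vimp* (1.24-fold) higher, and *Sec62* (-0.27), *Srp14* (-0.18), *Sec11a* (-0.13), *Ubxn4* (-0.22), *Os9* (-0.21) and *Derl1* (-0.17) lower. *Tap1* (1.13-fold) and *Atp2a2* (1.26-fold) rose, and *B2m* (-0.18), *Itpr2* (-1.05) and *Stim1* (-0.52) fell.

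**Figure D5:**
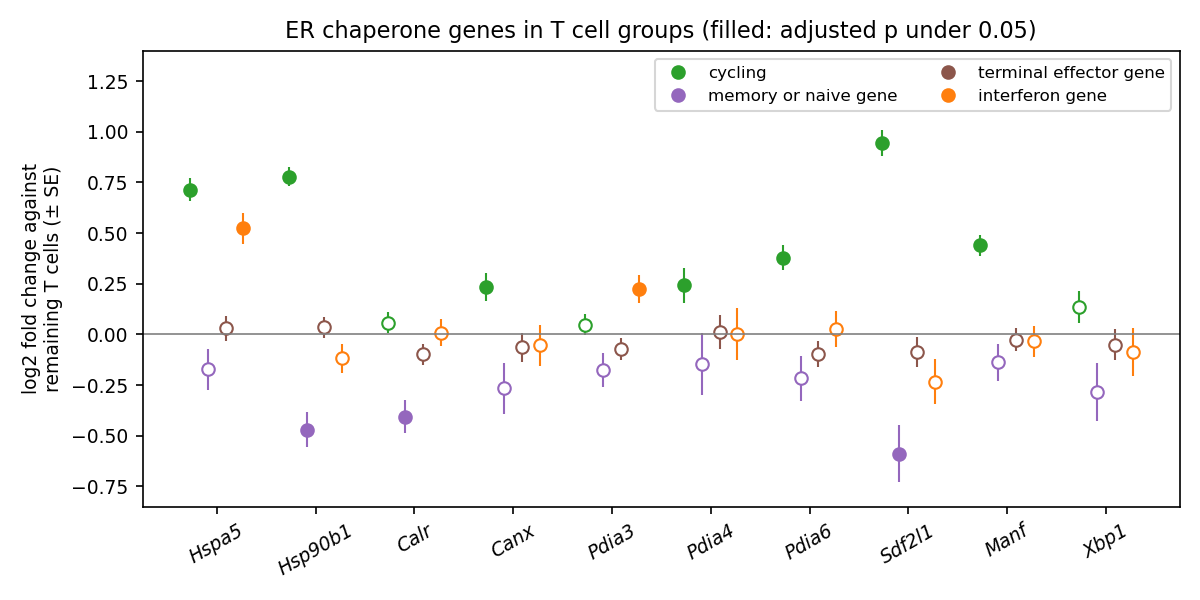
Log2 fold change (± SE) of the 10 genes in 4 groups of T cells against the remaining T cells, with filled points at an edgeR adjusted p under 0.05. Cycling cells have 7 filled points above 0 (Sdf2l1, at 0.94, the highest), memory or naive gene cells 3 below 0, and interferon gene cells 2 above 0.

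In memory or naive gene T cells (166, 241, 91 and 170 cells in WT1, WT2, KO1 and KO2) all 10 genes were below 0, and 3 fell, where 15.5% of genes were called and 7.19% were lower. *Sdf2l1* was at 44.6 to 67.2 CPM in the 4 libraries (log2 -0.59, SE 0.14), *Hsp90b1* at 167, 187, 113 and 135 CPM (-0.47, SE 0.09) and *Calr* at 218, 203, 158 and 204 CPM (-0.41, SE 0.08). Without the library block *Hsp90b1* and *Calr* did not pass the test, and *Calr* was also lost with cells thinned to 1000 UMIs. *Pdia6* was at -0.22 (SE 0.11), which did not pass the test, and with the stricter gate it was called at -0.49. *Cd4* was at 12.5 to 20.6 CPM in this group, against 1.19 to 2.55 CPM in the remaining T cells, and its part was not tested.

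In interferon gene T cells (124, 592, 112 and 231 cells), *Hspa5* was at 245, 281, 168 and 263 CPM in WT1, WT2, KO1 and KO2, 1.44-fold over the remaining T cells of the same libraries (log2 0.52, SE 0.08). It and *Pdia3* (0.23, SE 0.07) were called, where 5.53% of genes were called and 4.23% were higher. The *Pdia3* call was lost without WT2, without KO1 and without KO2 (log2 0.24, 0.16 and 0.19), with DESeq2 and without TMM, and neither call held without the library block. *Cd4* was at 15.1, 1.59, 10.0 and 4.43 CPM in this group of WT1, WT2, KO1 and KO2, above the remaining T cells in each library but WT2, and its part was not tested. In terminal effector gene T cells 0 of the 10 genes were called by edgeR, where 13.8% of genes were, with 0 at an unadjusted p under 0.05 (25.4% of all genes) and 0 called by DESeq2 (9.36%). All 10 lay between -0.10 and 0.03 on the log2 scale, with SEs of 0.05 to 0.08.

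The genes most like *Pdia6* differed between these scales. Over 12 sums of T, B and plasma cells, the 5 highest Pearson correlations of log2(CPM + 1) among 2566 genes were those of *Yipf6* (0.98), *Rrbp1* (0.976), *Rexo2* (0.969), *Ergic1* (0.969) and *Atp5g1* (0.969). Among the 10 genes *Calr* (0.965) and *Xbp1* (0.961) were nearest. Over 20 sums of T cell groups, among 2674 genes, the 5 highest were *Psma4* (0.898), *Pkm* (0.891), *Rpn2* (0.872), *Wdr61* (0.87) and *Psmb2* (0.864), with *Hsp90b1* (0.836) and *Hspa5* (0.833) the nearest of the 10 and *Xbp1* (0.415) the farthest. The sums share 4 libraries and their depths, so the correlations are a description.

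The 10 genes are protein coding and lie on 8 chromosomes. In GENCODE vM21 (GRCm38) *Hspa5* is at chr2:34771970-34777547, *Hsp90b1* at chr10:86690209-86705509, *Xbp1* at chr11:5520659-5525893 and *Sdf2l1* at chr16:17130138-17132383. *Hsp90b1* overlaps *Gm15344* on the same strand, which holds 9 of the 882 stretches of 60 bases at its 3′ ends (1.02%). *Manf* overlaps *Rbm15b* and *Pdia4* overlaps *Mir704* on the same strand, so reads there can be counted to neither or to the partner. The 3′ ends of the other genes shared no stretch of 60 bases with another gene.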

How the data were processed

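The authors prepared 10x 3′ libraries (version 2 kit) of cells sorted from 2 chimeras and deposited UMI counts for each gene and barcode, neither normalized nor filtered. The labels name bcl2fastq 2.17, Cell Ranger 2.2.0 and the build mm10, and an annotation is not given in the sources used here. Both the 10 genes, the pathway and marker lists and the tests were chosen with earlier results of these data known, and gate thresholds were set after marker counts had been seen.

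Cells followed the study's filter of 500 genes and 10% mitochondrial UMIs. A T cell had at least 3 T cell marker UMIs per 1000 UMIs, a plasma cell at least 10 plasma marker UMIs and a B cell at least 5 B cell marker UMIs (without *Cd74* and *H2-Aa*). Droplets that met the plasma or B cell gate but had at least 3 T cell marker UMIs per 1000 were left out. Those that met both the plasma and the B cell gate were kept as plasma cells, and no doublet caller was run. This left 239 to 404 cells per library in no class. T cell groups needed at least 2 cycling, 1.5 memory or naive, 4 terminal effector or 4 interferon marker UMIs per 1000, and a group is a range of a score, not a type: near the interferon gate of WT2 lay 431 cells just below and 216 just above. No immunoglobulin or T cell receptor constant gene was among the markers that could be used, so 5 of 15 plasma markers were counted.

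Counts were summed per library and class and tested by the quasi-likelihood test of edgeR 4.0.16 after filterByExpr and TMM (Benjamini-Hochberg adjustment, threshold 0.05) in R 4.3.3, and sums of under 10 cells were left out. Genotype was fitted without a block, and with the chimera as a block as an alternative, since same-numbered libraries share an animal: in T cells, the log2 difference between the WT libraries and that between the *Bcl3*-/- libraries had a Pearson correlation of 0.49 across 6741 genes. Class and group fits had library as a block. DESeq2 1.42.0, the block, other filters, thinning, scaling, stricter gates and leaving out each library were alternatives. Runs of the fits on simulated data are not reported here, and no result rests on them. Floors and intervals (Poisson, Clopper-Pearson or conditional binomial, 95%) cover counting error only. The text names the 10 genes, up to 3 rises and 3 falls per list in plasma, B and cycling cells, the 2 called genes with the largest genotype difference and the 5 genes most like *Pdia6*. *Xist* was left out of both of the last rankings. Immunoglobulin and T cell receptor genes and *Jchain* were also left out of the genes most like *Pdia6*.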

Additional observations from a re-analysis of the deposited data

Results flagged for a closer look

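The genotype difference of 4 of the genes had opposite signs in 2 cell classes, with both chimeras agreeing within each class. These differences between classes were not tested. The share of all genes with such opposite signs is not given here, so nothing is read from the count. *Pdia3* was lower in *Bcl3*-/- T cells (log2 -0.42 and -0.28 in chimeras 1 and 2) and B cells (-0.71 and -0.35) and higher in *Bcl3*-/- plasma cells (0.27 and 0.38). *Hspa5* was lower in T cells (-0.64 and -0.60) and B cells (-0.56 and -0.19) and higher in plasma cells (1.5 and 0.21). *Calr* was lower in T cells (-0.35 and -0.25) and B cells (-0.36 and -0.28) and higher in plasma cells (0.68 and 0.31). *Sdf2l1* was lower in T cells (-0.20 and -0.15) and higher in plasma cells (0.16 and 0.87). In plasma cells of KO1 and KO2, 1 cell held 54.9% and 40.9% of the *Hspa5* UMIs, 39.5% and 14.4% of the *Calr* UMIs and 30.1% and 38.4% of the *Sdf2l1* UMIs, and without the richest cell these 3 genes overlapped between genotypes.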

How the results depend on the processing

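*Pdia6* stayed below WT in *Bcl3*-/- T cells in every setting run (log2 -0.80 to -0.66). No value that passed the test changed sign, but values near 0 did, among them, leaving out 1 library, *Xbp1* between genotypes in T cells (-0.10 to 0.05) and *Canx* (-0.17 to 0.07) and *Manf* (-0.23 to 0.02) in B against T cells. For genotype, 42 calls over all cells and 22 in T cells became 1116 and 1174 with chimera as a replicate block (paired by animal), 209 and 161 with DESeq2, and 80 and 39 without TMM, and 37 in T cells thinned to 1000 UMIs. Without thinning, the share of T cells with a *Pdia6* UMI was 36.8%, 23.4%, 25.4% and 21.4% in WT1, WT2, KO1 and KO2. Leaving out 1 library gave 40 to 228 over all cells (228 without WT1, 176 without KO1) and 2 to 183 in T cells (35 without WT1, 2 without WT2, 183 without KO1, 39 without KO2).

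Thinning lowered the calls to 1029 (B against T cells, from 2409), 1007 (plasma against T, from 2599, with 2349 genes tested in place of 5035), 933 (plasma against B, from 2212), 1666 (cycling, from 3904), 589 (memory or naive, from 1305), 570 (terminal effector, from 1165) and 243 (interferon, from 466). The class contrasts share 1 fit and so the same genes tested. For the T cell groups the number tested after thinning is not given here, so no share is read from their counts. Without the replicate block the T cell groups had 2383, 568, 277 and 215 calls in that order. Leaving out 1 library gave 2031 to 2153, 2214 to 2417, 1830 to 2010, 3348 to 3499, 856 to 1131 (856 without WT1), 723 to 1099 (723 without KO2) and 349 to 386.

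Of the 10 genes, 7 were called in cycling cells and 4 without the replicate block or thinned (6 to 7 leaving out 1 library). In memory or naive gene cells 3 were called, 1 without the replicate block, 2 thinned and 6 with no filter on low counts (3 to 4). With no filter 1444 genes were called in all. In terminal effector gene cells 0 of the 10 were called, and 1 without TMM or without WT1 (*Calr*; 0 to 1). Genes called in all numbered 1374 without TMM and 1021 without WT1. In interferon gene cells 2 of the 10 were called, 0 without the replicate block, and 1 with DESeq2, no filter, no TMM or thinning (1 to 2; 1 without WT2, KO1 or KO2). Genes called in all numbered 395 with DESeq2, 474 with no filter and 476 without TMM. In B against T cells 4 of the 10 were called, 3 of them higher (3 to 5 leaving out 1 library), with 6 called and 2 of them higher with no filter, and 5 and 2 without TMM. Genes called in all numbered 3475 with no filter and 2629 without TMM. The number of genes tested differs with no filter, and the counts of the 10 genes are a description. In plasma cells 10 of the 10 were called in every setting. With the stricter gate WT1 and KO1 held 8 and 4 plasma cells and their plasma sums were left out, so that setting rests on chimera 2.

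Without TMM the share of calls that were higher went from 52.8% to 31.0% in terminal effector and from 76.4% to 64.5% in interferon gene cells. Keeping droplets with T cell markers, or leaving out the richest plasma cells, both chosen after seeing the data, left the plasma counts within 1.5 times. Ranked by Spearman correlation, 1 of 5 (*Yipf6*) and 2 of 5 (*Psma4* and *Wdr61*) of the genes most like *Pdia6* were shared. Counts without immunoglobulin genes were not run, since none was among the rows analysed here, and the stricter gate left 10 of 12 class sums. Where leaving out 1 library left a genotype with 1, that library was assumed to vary like the others. The 20 to 58 plasma cells per library limit the plasma values.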
